A study of Mus musculus with 2 samples.

Results

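Genes of the voltage-gated calcium channels, the voltage-gated sodium channels, the HCN channels and the TRPC, TRPM and TRPV channels were described in RNA of the mouse adrenal gland. The genes were chosen by symbol alone: every protein-coding gene of GENCODE M21 whose symbol begins with Cacna, Cacnb, Cacng, Scn and a number, Hcn and a number, or Trpc, Trpm or Trpv and a number. This gave 67 genes of 22015 nuclear protein-coding genes and 55536 annotated genes. The pattern also takes Trpc4ap, which encodes an adaptor protein, and Trpc5os, a gene on the strand opposite to Trpc5, so 65 of the 67 are channel genes.

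Total RNA came from whole adrenal glands of B6CASTF1/J males (first-generation crosses between C57BL/6J and CAST/EiJ), adult and aged 8-10 months. The labels number 2 biological replicates in 1 group, from the animals numbered 2 and 4, under 1 shared donor entry. No treatment or other group is named, each library began with 300 ng of RNA, and ERCC spike-ins were added. The libraries held 29994901 expected counts on annotated genes in replicate 1 and 33987434 in replicate 2. Levels are in TPM (a share of all transcripts, which corrects for transcript length) and are given as both values or as mean ± SD over n = 2 animals. Because whole glands were sequenced, more cells of a type and more RNA per cell cannot be told apart.

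Voltage-gated calcium channels are built around a pore subunit (Cacna1 genes). In the Cav1 and Cav2 classes the pore binds a cytoplasmic beta subunit (Cacnb) and an extracellular alpha2delta subunit (Cacna2d). Cav1 pores carry L-type current, Cav2 pores the P/Q-, N- and R-type currents, and Cav3 pores the T-type current that opens at weak depolarisation. In the adrenal cortex calcium entry drives aldosterone synthesis in the zona glomerulosa, and in the medulla it triggers catecholamine release from chromaffin cells. Sodium channels carry the upstroke of the action potential, HCN channels open on hyperpolarisation, and TRP channels are cation channels gated by lipids, calcium, temperature or other cues.

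Promoter sequences are shown for 4 genes because they set 2 start regions of the same strongly expressed gene side by side. They also set highly expressed genes beside the low Scn7a and beside Scn10a, which had no expected count. Each line gives the 250 bases before a RefSeq start (GRCm38.p6, the mm10 assembly) on the gene's strand, and capitals mark the GC box GGGCGG or its complement CCGCCC, with overlapping matches joined.
Cacna1c, start of Cacna1c-216, chr6:119108496-119108745, minus strand: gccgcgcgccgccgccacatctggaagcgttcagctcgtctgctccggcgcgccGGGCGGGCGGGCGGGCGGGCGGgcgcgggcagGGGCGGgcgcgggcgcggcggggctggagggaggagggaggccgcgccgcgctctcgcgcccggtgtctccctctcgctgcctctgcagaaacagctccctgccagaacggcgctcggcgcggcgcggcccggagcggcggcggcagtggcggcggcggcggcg
Cacna1c, start of Cacna1c-218, chr6:119196410-119196659, minus strand: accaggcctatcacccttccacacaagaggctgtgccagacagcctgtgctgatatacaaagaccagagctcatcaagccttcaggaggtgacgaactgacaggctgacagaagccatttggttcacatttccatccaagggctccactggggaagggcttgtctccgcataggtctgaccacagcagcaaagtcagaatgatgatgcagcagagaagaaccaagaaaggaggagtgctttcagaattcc
Cacna2d1, chr5:15934441-15934690, plus strand: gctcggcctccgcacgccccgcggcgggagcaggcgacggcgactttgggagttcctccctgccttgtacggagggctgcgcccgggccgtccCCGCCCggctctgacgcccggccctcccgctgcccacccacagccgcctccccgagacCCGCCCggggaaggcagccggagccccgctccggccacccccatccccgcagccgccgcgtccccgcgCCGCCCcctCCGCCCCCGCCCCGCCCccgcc
Scn7a, chr2:66784911-66785160, minus strand: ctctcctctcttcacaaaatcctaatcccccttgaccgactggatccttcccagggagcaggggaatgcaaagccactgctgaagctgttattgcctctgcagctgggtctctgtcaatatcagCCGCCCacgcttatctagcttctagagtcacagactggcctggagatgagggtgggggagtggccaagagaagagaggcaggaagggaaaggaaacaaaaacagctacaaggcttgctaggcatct
Scn10a, chr9:119719033-119719282, minus strand: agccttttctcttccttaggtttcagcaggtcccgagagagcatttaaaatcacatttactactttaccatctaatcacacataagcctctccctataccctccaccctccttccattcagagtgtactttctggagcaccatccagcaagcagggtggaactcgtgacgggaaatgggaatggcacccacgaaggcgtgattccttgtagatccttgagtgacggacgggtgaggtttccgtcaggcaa
The GC box occurred 6 times in the Cacna1c-216 sequence, 6 times in that of Cacna2d1, once in that of Scn7a and in neither of the others. Their GC content was 82.8% before Cacna1c-216, 82.4% before Cacna2d1, 53.2% before Scn7a, 51.6% before Cacna1c-218 and 49.6% before Scn10a. Other genes, whose sequences are not printed, broke this order of GC boxes and levels. Trpm7, at 18.26 and 21.76 TPM, had no GC box in its 250 bases, and Hcn2, at 2.88 and 3.68 TPM, had 3.

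Of the 67 genes, 29 reached 1 TPM or more in both libraries (called detected), or 43.3%, against 56.3% of nuclear protein-coding genes. The detected set held 28 of the 65 channel genes. In 1 library alone 2 genes reached 1 TPM, among them Trpv4 in replicate 2, and 36 genes lay under 1 TPM in both libraries. Scn10a, Trpm1, Trpm8 and Trpv5 had no expected count in either library of the RSEM-format tables, which allows up to 3 counts, or 0.10 CPM (counts divided by the library total and scaled alike in both) in replicate 1 and 0.0883 CPM in replicate 2. The kallisto-format tables gave Trpm1 9.04 estimated counts in each library and the other 3 genes none. Just inside the threshold lay Scn2a at 1.71 and 1.05 TPM and Trpc5 at 1.67 and 1.55 TPM. Just outside it lay Trpv4 at 0.88 and 1.27 TPM and Scn9a at 0.77 and 0.84 TPM. The median level of the detected genes was 5.29 TPM, and that of all detected nuclear protein-coding genes was 13.2 TPM.

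**Figure D1:**
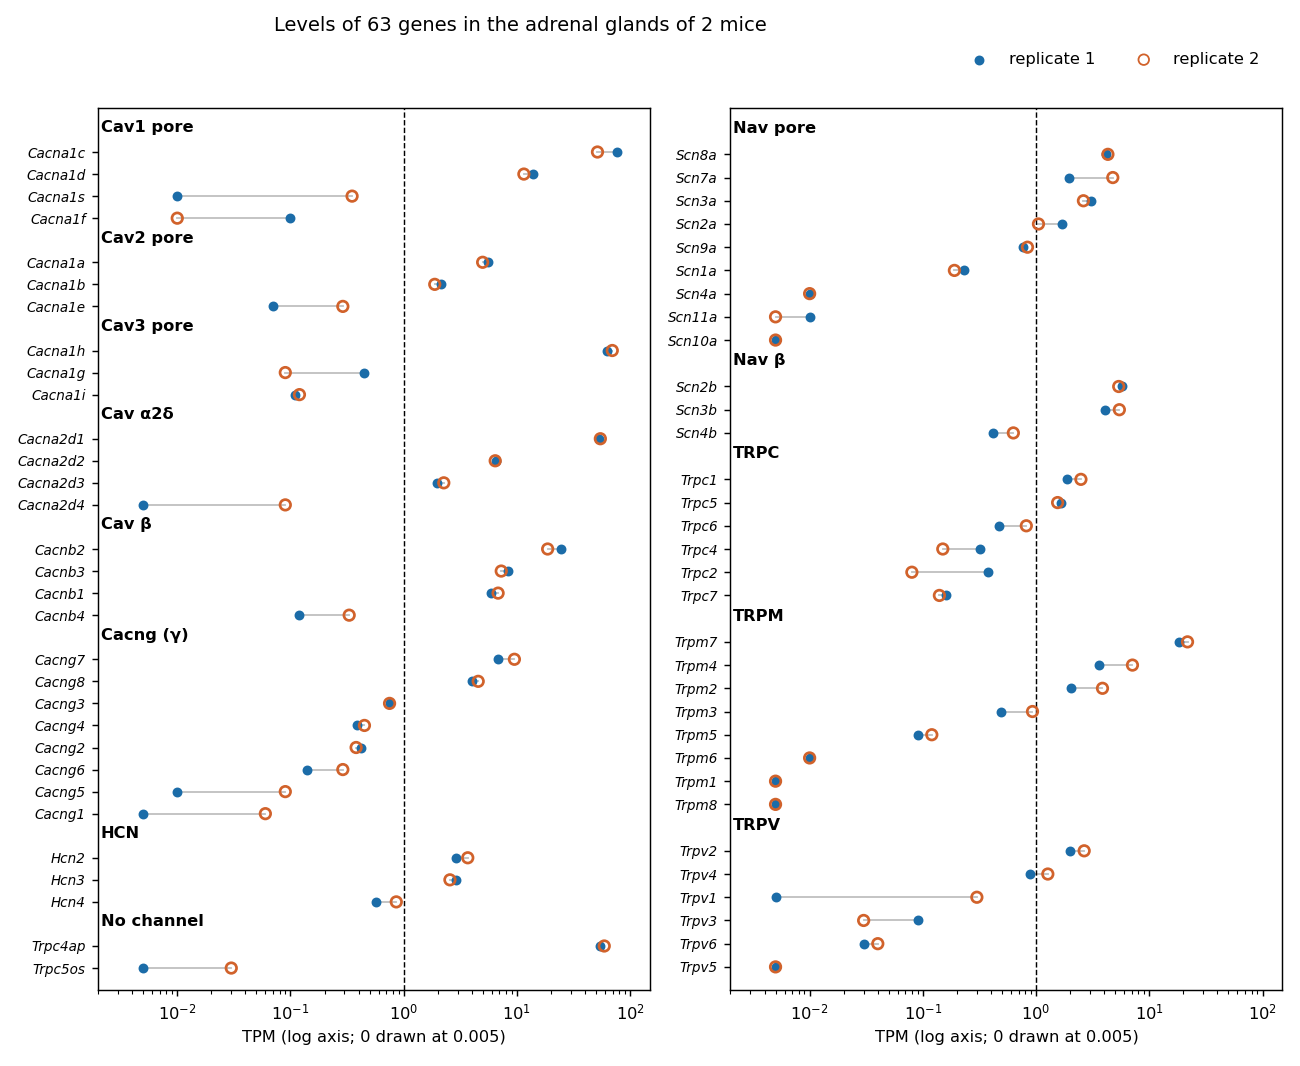
Level of 63 of the genes in TPM (log axis) by subfamily, with replicate 1 as filled and replicate 2 as open points joined by a line; the dashed line is 1 TPM and 0 is drawn at 0.005. Cacna1c, Cacna1h, Cacna2d1 and Trpc4ap lie above 50 TPM in both libraries, and 34 of the genes drawn lie below 1 TPM in both.

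Among the 10 calcium channel pore genes, 1 L-type and 1 T-type gene stood far above the others. Cacna1h, a T-type pore gene known from the zona glomerulosa, was at 63.02 TPM in replicate 1 and 69.53 TPM in replicate 2. Cacna1c, the L-type pore gene of heart and smooth muscle, was at 77.03 and 51.46 TPM. The order of this pair changed between the animals: Cacna1c was the higher gene in replicate 1 and Cacna1h in replicate 2. On protein-coding transcripts alone, by RSEM-format TPM, Cacna1c was at 42.66 and 33.82 TPM and Cacna1h at 42.04 and 47.69 TPM. The 2 genes were thus nearly level in replicate 1 on those transcripts. By mean TPM, Cacna1h (66.3 ± 4.60 TPM, chr17:25374285-25433783) ranked 967 among the nuclear protein-coding genes and Cacna1c (64.2 ± 18.1 TPM, chr6:118587240-119196418) ranked 1014.

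Cacna1d, the L-type pore gene of neuroendocrine cells, followed at 13.84 and 11.52 TPM. Cacna1c exceeded it 5.57-fold in replicate 1 and 4.47-fold in replicate 2. Chdh overlaps an exon of Cacna1d on the opposite strand (228 and 655 counts), and whether the counting used strand is not given in the sources used here. The other Cav1 genes, Cacna1s of skeletal muscle and Cacna1f of the retina, did not exceed 0.35 TPM in either library. Within the T-type genes Cacna1h took 99.1% of the summed TPM in replicate 1 and 99.7% in replicate 2. Cacna1g, with 22 counts in each library, and Cacna1i stayed below 0.5 TPM.

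The Cav2 genes were lower. Cacna1a, the P/Q-type pore gene, was at 5.59 and 4.98 TPM, and Cacna1b, the N-type pore gene, at 2.14 and 1.88 TPM. By gene-level TPM these 2 genes kept their order in both animals, with a gap larger than either SD. On protein-coding transcripts alone, by RSEM-format TPM, Cacna1a was at 1.70 and 1.58 TPM and Cacna1b at 2.14 and 1.89 TPM. The order on those transcripts was thus reversed in both libraries. Cacna1e, the R-type pore gene, was at 0.07 and 0.29 TPM. Summed over genes, Cav1 pores reached 77.2 ± 19.5 TPM, Cav3 pores 66.7 ± 4.36 TPM and Cav2 pores 7.48 ± 0.460 TPM.

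Each class of auxiliary calcium channel subunit had 1 leading gene. Cacna2d1, the alpha2delta gene of muscle and many neurons (chr5:15934691-16374511), was at 52.60 and 54.56 TPM, 8.12-fold above Cacna2d2 in replicate 1 and 8.49-fold in replicate 2. Cacna2d2 was at 6.48 and 6.43 TPM and Cacna2d3 at 1.95 and 2.26 TPM. Cacna2d4, of the retina, stayed at or below 0.09 TPM although it lies 40.1 kb from Cacna1c. Neighbours in this order were separated in both animals by more than the larger SD.

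Cacnb2, a beta subunit that takes Cav1 pores to the membrane (chr2:14603088-14987908), was at 24.42 and 18.68 TPM. Cacnb3 was at 8.32 and 7.27 TPM and Cacnb1 at 5.95 and 6.82 TPM, and these 3 genes kept their order in both animals. Cacnb4 stayed below 0.35 TPM. The summed beta subunits reached 36 ± 4.04 TPM and the summed alpha2delta subunits 62.2 ± 1.63 TPM. Cav1 and Cav2 pores together exceeded the beta subunits 2.55-fold in replicate 1 and 2.13-fold in replicate 2.

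Of the 8 Cacng genes, Cacng7 was at 6.78 and 9.50 TPM and Cacng8 at 4.00 and 4.55 TPM. Both belong to the members of the family that regulate AMPA-type glutamate receptors. Cacng1, the gamma subunit of the skeletal muscle channel, was at 0 and 0.06 TPM, and the other 5 lay under 1 TPM. Cacng7, Cacng8 and Cacng6 are adjacent on chromosome 7, with 22.5 kb and 8.55 kb between them, and Cacng6 was at 0.14 and 0.29 TPM. The gene of the muscle gamma subunit was thus low where the pore gene of the same channel, Cacna1s, was low too.

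**Figure D2:**
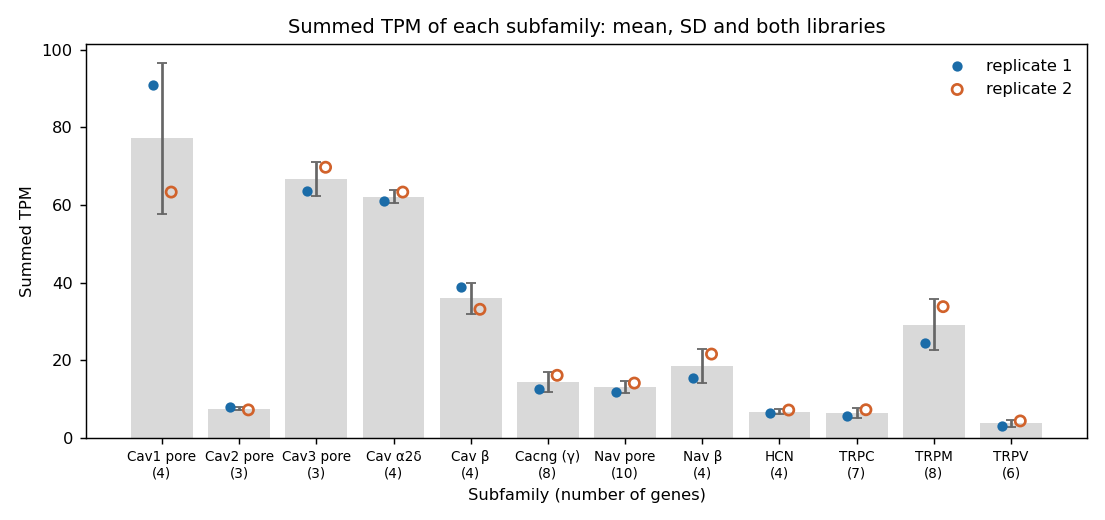
Summed TPM of each subfamily: bars are the mean of 2 animals from 0, whiskers the SD, and points the libraries. Cav1 pores (77.2 TPM), Cav3 pores (66.7 TPM) and alpha2delta subunits (62.2 TPM) are highest, and TRPV genes (3.64 TPM) lowest.

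Sodium channel pore genes were expressed at low levels with no leading gene in both animals. Scn8a, a pore gene of neurons, was at 4.15 and 4.31 TPM. Scn7a, which encodes a sodium-sensing channel known from glia, was at 1.94 and 4.76 TPM. Scn3a was at 3.07 and 2.62 TPM and Scn2a at 1.71 and 1.05 TPM. By gene-level TPM Scn8a lay above Scn3a in both animals, with a gap of the means larger than either SD. On protein-coding transcripts alone, by RSEM-format TPM, Scn8a was at 2.21 and 2.99 TPM and Scn3a at 2.96 and 2.56 TPM. Their order on those transcripts changed between the animals. Scn7a could not be placed against Scn8a or Scn3a, because its order with each changed between the animals. It lay above Scn2a in both libraries, but the gap of the means did not exceed the SD of Scn7a.

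The other 6 pore genes lay under 1 TPM, among them Scn4a of skeletal muscle, and Scn10a and Scn11a of sensory neurons. Summed, the 10 pore genes reached 12.98 ± 1.54 TPM, against 151 ± 15.6 TPM for the 10 calcium channel pore genes. That ratio was 13.7 in replicate 1 and 9.97 in replicate 2. Neighbours on chromosome 2 differed in level: Scn9a, 39.2 kb from Scn1a and 38.5 kb from Scn7a, was at 0.77 and 0.84 TPM while Scn1a was at 0.23 and 0.19 TPM. Reads of Scn1a, Scn2a, Scn3a and Scn9a were in part shared with other genes, so their counts are estimates.

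The sodium channel beta subunits, adhesion-like proteins that modulate the pore, summed to 18.5 ± 4.33 TPM, more than the pores in both libraries (1.3-fold and 1.53-fold). Scn2b was at 5.74 and 5.37 TPM and Scn3b at 4.03 and 5.44 TPM, and this pair changed order between the animals. Scn4b, 8.32 kb from Scn2b on chromosome 9, was at 0.42 and 0.63 TPM.

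Among the HCN genes, which encode the pacemaker channels, Hcn2 was at 2.88 and 3.68 TPM and Hcn3 at 2.88 and 2.56 TPM. By gene-level TPM this pair did not differ beyond its spread. On protein-coding transcripts alone, by RSEM-format TPM, Hcn2 was at 2.88 and 3.68 TPM and Hcn3 at 1.42 and 0.94 TPM. Hcn2 was thus the higher gene on those transcripts in both libraries. Hcn4, the main form of the sinoatrial node, was at 0.57 and 0.86 TPM.

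Of the 21 TRP channel genes, 6 were detected. Trpm7, a channel with a kinase domain that carries magnesium and is widely expressed (chr2:126791565-126876230), led them at 18.26 and 21.76 TPM. Trpm4, a calcium-activated channel for monovalent cations, was at 3.60 and 7.10 TPM. Trpm2, a channel opened by ADP-ribose and oxidative stress, was at 2.02 and 3.86 TPM. Trpm7 made up 74.6% of the summed TRPM level in replicate 1 and 64.4% in replicate 2, and no TRPM gene beyond these 3 reached 1 TPM.

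Trpv2 was at 1.98 and 2.66 TPM, and the heat- and capsaicin-gated channel gene Trpv1 had no count in replicate 1 and 13 counts in replicate 2. In the TRPC family, whose channels open downstream of phospholipase C, Trpc1 was at 1.87 and 2.49 TPM and Trpc5 at 1.67 and 1.55 TPM. Trpc2 shares exons with Xndc1 and Xntrpc on its own strand, so its 29.2 and 7 counts are uncertain. Xntrpc had 36.7 and 86.6 counts, the opposite direction. The adaptor gene Trpc4ap, no channel, was at 54.28 and 59.05 TPM.

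Genes that work with these channels were read from fixed lists. Of the 17 partners and small G-protein inhibitors 15 were detected, led by Cbarp, a calcium channel beta-anchoring and regulatory protein gene, at 36.34 and 30.11 TPM, and Ank2, an ankyrin, at 19.33 and 16.93 TPM. For the NALCN sodium leak channel 4 of 4 matched genes were detected, led by Unc80 at 13.57 and 13.36 TPM and Nalcn at 5.75 and 5.48 TPM. Nalcn thus lay above every voltage-gated sodium channel pore gene in both libraries. Of 3 epithelial sodium channel genes only Scnn1a was detected, at 1.01 and 1.15 TPM.

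Among the other TRP family channels 2 of 7 were detected, the lysosomal channel gene Mcoln1 at 27.12 and 27.92 TPM and Pkd2 at 19.73 and 22.34 TPM. All 5 genes of store-operated calcium entry were detected, led by the calcium sensors Stim1 (28.17 and 34.78 TPM) and Stim2 (12.51 and 13.57 TPM). Of 6 release channel genes 4 were detected, led by the IP3 receptors Itpr1 (49.61 and 48.58 TPM) and Itpr2 (14.11 and 17.06 TPM).

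Of 11 calcium pumps and exchangers 9 were detected, led by Atp2a2 (71.23 and 74.90 TPM) and Atp2b3 (26.20 and 27.87 TPM), which pump calcium into the endoplasmic reticulum and out of the cell, respectively. Of 13 calmodulin and calmodulin kinase genes 11 were detected, led by Calm2 (158.81 and 199.21 TPM). All 6 genes of the mitochondrial uniporter were detected, led by Smdt1 (54.46 and 51.14 TPM). These lists were detected at higher shares than the channel genes themselves, except for the epithelial sodium channel and the other TRP channels.

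The libraries were next compared gene by gene. Since each side is 1 animal, no p-value is given, and folds of counts scaled to a common library size carry 95% intervals of counting error only. Of the 32 genes averaging 100 counts or more, 1 was at least 2-fold higher in replicate 2 with an interval above equality, or 3.13%, against 2.39% of 12853 nuclear genes. None was 2-fold lower, against 1.15% of nuclear genes. The count of 1 is near that background.

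That gene was Scn7a, with 394 counts in replicate 1 and 1038 in replicate 2. It was 2.25-fold higher in replicate 2 (2.00 to 2.53), and its reads fell on a single annotated transcript, so transcript choice did not enter its TPM. Markers of 2 other tissues stood higher in the same library. The 6 white adipocyte markers, all at least 2-fold higher, summed to 209 TPM in replicate 1 and 1804 TPM in replicate 2, and the 5 brown adipocyte markers, all at least 2-fold higher, to 26.9 and 282 TPM.

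The 6 Schwann and sustentacular cell markers summed to 12.8 and 27.3 TPM. Most of that gap was S100b, at 1.42 and 13.20 TPM, while Sox10 was at 0.71 and 0.96 TPM. Of the 5 markers in this list averaging 10 counts or more, 3 were higher and 2 lower in replicate 2. The part of fat or glial cells in the Scn7a value was not tested.

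At 1.5-fold 3 of 32 genes were higher, against 6.19% of nuclear genes, among them Scn7a and Trpm3 (90 and 168 counts, 1.59-fold, 1.22 to 2.08). The lower gene was Hcn3 (176 and 133 counts, 1.55-fold lower, 1.23 to 1.96), 1 of 32 against 3.91%. Among the 49 genes averaging 10 counts or more, the 2-fold rule took Cacna1e (20 and 65 counts) beside Scn7a, against 4.76% of nuclear genes. In the lower direction it took Trpc4 (28 and 14 counts) and Trpc2, whose counts are uncertain, against 3.92%. With no filter on counts the higher genes numbered 6 of 63 with any count, against 4.41%, and the lower genes 2, against 3.85%. The names under these other rules were chosen after their values were seen.

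Smaller differences were read from the counting intervals. Intervals lay above equality for 9 of the 32 genes (28.1%, against 28.3% of nuclear genes), below it for 10 (31.3%, against 28.4%), and held it for 13. Cacna1h, with 9650 and 11636 counts, was 1.03-fold higher in replicate 2 (1.00 to 1.06), and Cacna2d1 was 1.07-fold higher (1.03 to 1.10). Trpm7 was 1.12-fold higher (1.06 to 1.18) and Trpm4 1.49-fold higher (1.27 to 1.75).

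Cacna1c, with 12260 and 10403 counts, was 1.38-fold lower in replicate 2 (1.35 to 1.42). Cacnb2 was 1.35-fold lower (1.26 to 1.44), Cacna1d 1.33-fold lower (1.25 to 1.41), Cacna1b 1.40-fold lower (1.24 to 1.59) and Cacna1a 1.23-fold lower (1.08 to 1.40). The other 5 genes with an interval below equality were Cacnb3 (1.16-fold, 1.03 to 1.31), Scn8a, Scn2a, Scn2b and Hcn3, and the interval of Cacnb1 held equality. By RSEM-format TPM, Cacnb2 was at 11.46 and 11.86 TPM on coding transcripts. On its transcripts annotated as retaining an intron it was at 10.05 and 5.49 TPM. By kallisto-format TPM, coding transcripts took 60.3% and 63.1% of Cacnb2 and retained-intron transcripts 32.2% and 31.7%. The formats thus differed on which Cacnb2 transcripts were lower. Over those 49 genes the median log2 ratio of CPM + 1 was 0.03, against 0.00 over 18181 nuclear genes, and 26 of 49 were positive (53.1%, against 50.2%).

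Marker lists of cortex, medulla and vessel wall were read beside these values. The 8 chromaffin markers summed to 3192 and 2294 TPM, with 7 lower and 1 higher in replicate 2. Among them Th was at 514.07 and 255.69 TPM and Pnmt at 363.16 and 78.02 TPM, both over 2-fold lower in replicate 2, while Chga was at 1205.33 and 1004.08 TPM. The 6 smooth muscle and pericyte markers summed to 127 and 81.0 TPM, with 3 lower (Tagln, Acta2 and Cnn1) and 3 higher. The 8 zona glomerulosa markers summed to 1242 and 1265 TPM, with 4 higher and 4 lower, and Cyp11b2, the aldosterone synthase gene, was at 203.05 and 262.34 TPM. The part of these cells in the channel values was not tested.

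The remaining marker lists gave 12603 and 7897 TPM for the zona fasciculata (5 of 5 lower), 323 and 328 TPM for endothelium, 148 and 259 TPM for macrophages and 1396 and 2285 TPM for erythroid cells (each 5 of 5 higher). Skeletal muscle markers summed to 2.75 and 4.52 TPM with Ckm at 0, beside the low Cacna1s, Cacng1 and Scn4a. Of the 57 context genes averaging 100 counts or more, 1 was at least 2-fold higher in replicate 2 (1.75%, against 2.39% of nuclear genes) and 1 at least 2-fold lower (1.75%, against 1.15%). Fgf13, which encodes a protein that binds sodium channels, was 3.31-fold higher in replicate 2, and Ryr2, a ryanodine receptor gene, was 2.26-fold lower.

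**Figure D3:**
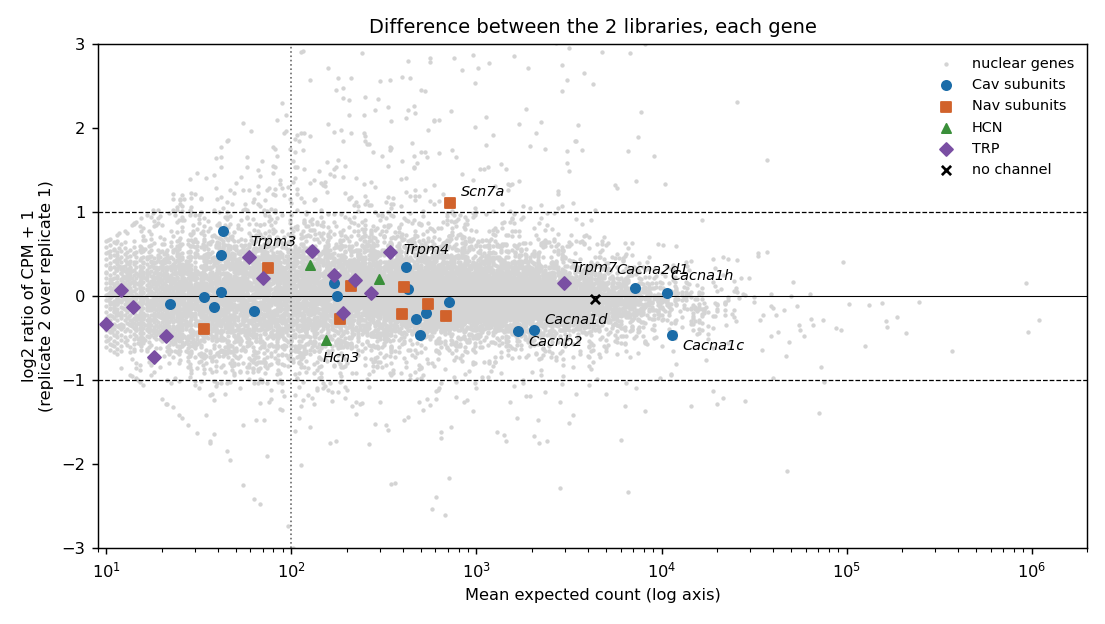
Log2 ratio of CPM + 1 (replicate 2 over replicate 1) against mean expected count (log axis), with nuclear genes in grey and channel genes in colour; dashed lines mark 2-fold and the dotted line 100 counts. Of the channel genes with over 100 counts, only Scn7a at 1.11 lies above the 2-fold line, and Hcn3 at -0.52 is the lowest.

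TPM and counts did not always tell the same difference, since TPM also depends on which transcripts a quantifier fills. The effective length, the mean length of the transcripts weighted by their share, was at least 1.25-fold apart between libraries for 3 of 32 genes (9.38%, against 4.75% of nuclear protein-coding genes). Trpm2 had 245 and 295 counts, a scaled ratio of 1.03, but its TPM was 1.91-fold higher in replicate 2. Its effective length was 4321 bases in replicate 1 and 2542 bases in replicate 2, and the short transcript Trpm2-210 of 436 bases took 0.18% and 36.7% of its TPM in the RSEM-format tables but 17.2% and 16.6% in the kallisto-format tables. Scn2a, with 188 and 177 counts, had a 1.43-fold longer effective length in replicate 2, and Hcn3 a 1.26-fold shorter one. The TPM difference of Trpm2 is therefore not seen in its counts.

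**Figure D4:**
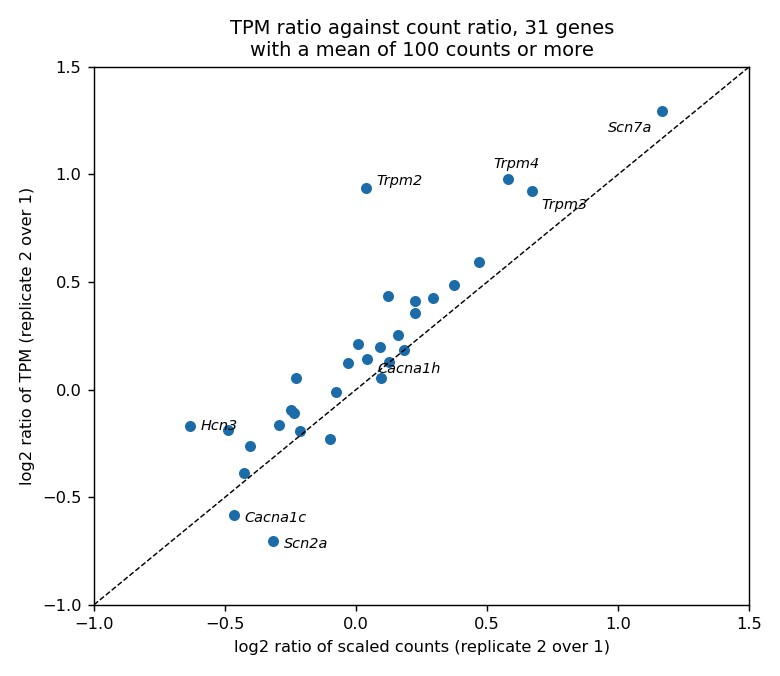
Log2 ratio of TPM against log2 ratio of scaled counts (replicate 2 over replicate 1) for 31 genes averaging 100 counts or more; the dashed line marks equal ratios. Trpm2 lies far above the line and Scn2a below it, and Scn7a is highest on both axes.

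Much of the RNA of these genes was assigned to transcripts that the annotation does not class as protein-coding. Over the 29 detected genes, coding transcripts took a median of 73.4% of the gene's TPM, against 87.5% over 11825 detected nuclear protein-coding genes that averaged 100 counts or more. Transcripts annotated as retaining an intron took a median of 15.8%, against 3.84%. The kallisto-format tables, which quantify the same libraries by another route, gave 63.0% against 83.9% for coding and 17.8% against 4.06% for retained-intron transcripts. The channel genes also had more annotated transcripts, a median of 9 against 5, and longer spans over all 67 members, a median of 69.7 kb against 17.3 kb.

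By RSEM-format TPM, Cacna1d (46.2 ± 1.81% coding), Trpm4 (34.8 ± 2.23%), Cacna1a (31.1 ± 0.930%), Trpm2 (42.2 ± 23.8%) and Hcn3 (43.0 ± 9.12%) had a mean under 50% on coding transcripts, 5 of 29 or 17.2%, against 10.2%. Trpm2 was at 25.4% in replicate 1 and 59.0% in replicate 2. The set changed with the format: by kallisto-format TPM Cacna1d was at 61.0% and 56.9%, Scn2a at 29.9% and 36%, and Trpm7 at 52.3% and 47.0%. In Trpm7 retained-intron transcripts took 36.9% in replicate 1 and 34.3% in replicate 2. At the other end, Scn2b, Cacng8, Hcn2, Cacna1b and Trpc5 had 100% of their TPM on coding transcripts in both libraries, as did Scn7a with its 1 transcript.

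Cacna1h-205 carried 63.7% and 63.3% of the Cacna1h TPM in the RSEM-format tables, but only 9.78% and 30.0% in the kallisto-format tables. At the gene level, over the 32 genes the ratio of kallisto-format to RSEM-format TPM ran from 0.680 (Cacna1d) to 1.47 (Scn2a), with none over 2-fold apart. For 13 of the 29 detected genes the mean moved by more than the SD between replicates, among them Cacna1d from 12.7 to 8.62 TPM and Cacna2d1 from 53.6 to 45.8 TPM. For Cacna1h as a whole the ratio was 0.97, so the formats differed on its leading transcript more than on its level.

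**Figure D5:**
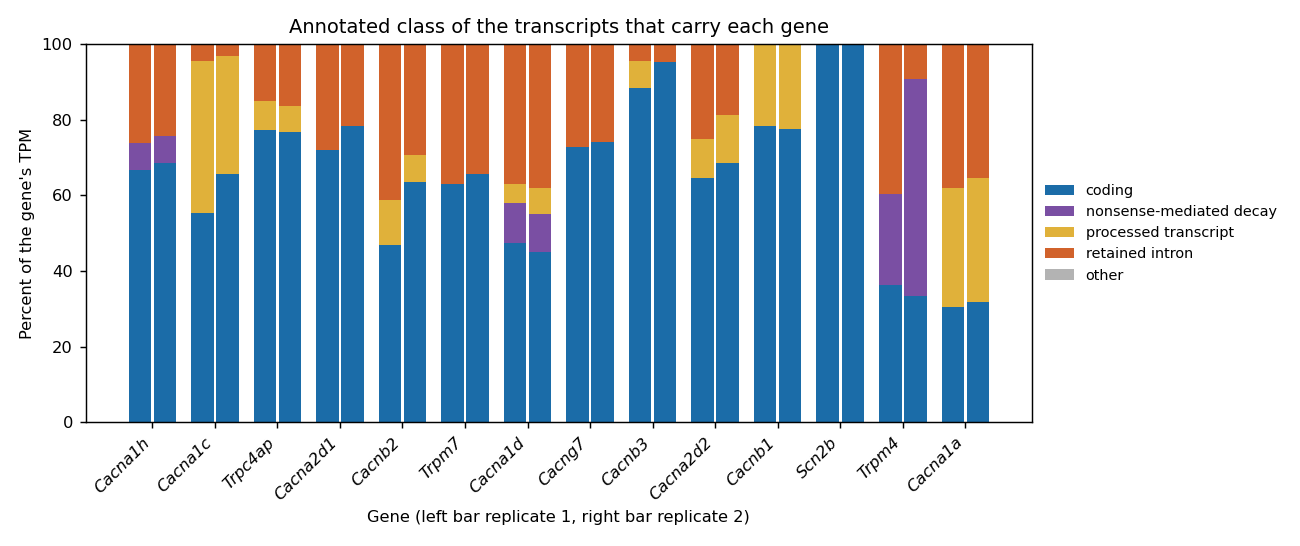
Percent of each gene's TPM on transcripts of each annotated class, left bar replicate 1 and right bar replicate 2, for 14 of the highest genes. Cacna1d, Trpm4, Cacna1a and, in replicate 1, Cacnb2 have under 50% on coding transcripts, and Scn2b has 100%.

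Reads inside introns were also counted by entries that the annotation places there. Cacnb2 holds 7 such entries on its own strand (unconfirmed transcripts and processed pseudogenes), with 862 counts in replicate 1 and 438 in replicate 2. Their sum was 2.31-fold lower in replicate 2 (2.06 to 2.60), against 1.35-fold for Cacnb2 itself, and 5 of the 7 had an interval below equality. In an intron of Cacna1c, Gm18981 had 99 and 51 counts, 2.28-fold lower (1.61 to 3.26), and in Cacna2d1, Gm43490 had 88 and 67 counts, 1.54-fold lower (1.11 to 2.15).

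The same was measured in other genes. Of 1020 such intronic entries of any nuclear coding gene that averaged 10 counts or more, 45.1% had an interval below equality in replicate 2 and 2.35% one above it, and their median log2 ratio was -0.30 while that of their host genes was -0.03. These entries lie in 694 genes, and this comparison was added after the Cacnb2 entries were seen. By type, 47.5% of the 863 unconfirmed transcripts had an interval below equality and 1.51% one above it. For the 157 processed pseudogenes, the type of Gm18981, the shares were 31.8% and 7.01%. The median log2 ratios were -0.34 and -0.13, respectively. The part of intronic RNA in the lower Cacnb2 and Cacna1c values was not tested.

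The start regions of Cacna1c differed in sequence. In the RSEM-format tables Cacna1c-216, the coding transcript at the start with 6 GC boxes, took 30.5% of the gene's TPM in replicate 1 and 33.0% in replicate 2. Transcripts at the start 87.9 kb upstream, led by the noncoding Cacna1c-218, took 17.6% and 13.7%. Cacna1c-218 has 954 bases against 7338 for Cacna1c-216, and its 324 and 181 counts were far fewer than the 4768 and 3703 of Cacna1c-216. In the kallisto-format tables the order of this pair depended on the library: Cacna1c-216 took 26.2% and 30.4%, and Cacna1c-218 took 26.8% and 20.6%. Transcripts at a further RefSeq start took, by RSEM-format TPM, 2.31% and 1.94%. The coding transcript Cacna1c-207, which lies at none of these starts, took 18.0% and 25.8% by RSEM-format TPM and 14.3% and 22.5% by kallisto-format TPM. Its 5063 and 5220 counts exceeded those of Cacna1c-216, so the starts described here leave out much of the gene's RNA. For Cacnb2, the transcript Cacnb2-203 at a start with 1 GC box took 33.1% and 45.3%.

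RefSeq start windows of 300 bases, from 250 before to 50 after the start, were found for 53 of the 67 genes (68 windows). The GC box GGGCGG, searched on both strands, was in 16 of 32 windows of detected genes (50%) and in 7 of 36 windows of genes not detected (19.4%), against 35.7% of all windows. The 32 windows belong to 22 genes and the 36 to 31 genes, so windows are not separate genes. Some windows of 1 gene overlap, as for Trpv2, and the window of the detected gene Cacng7 lies at no annotated transcript start. Over all protein-coding genes the shares were 62.8% for detected and 23.3% for undetected genes. The letters TATAAA were in 7 of the 68 windows (10.3%, against 13.6% of all windows), AGGTCA in 8 (11.8%, against 16.3%), TGACGTCA in none (against 1.79%) and TTCAGCACC in 1 (1.47%, against 0.371%). A match describes the letters only. Genes with no matched window include Cacna1a, Cacna1g, Cacna1h, Cacna2d4, Cacng1, Cacng4, Hcn3, Scn3a, Scn3b and Trpm4.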

How the data were processed

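The authors deposited gene and transcript tables with expected counts and TPM under the column names RSEM writes, per the file headers, with posterior means, standard deviations and credibility bounds (scores here) beside them. The deposited transcript tables add the percent of the gene's TPM that each transcript takes, and further deposited transcript tables hold estimated counts and TPM under kallisto's column names, per the file headers. TPM sums over all entries of a table, spike-ins included. The assembly is mm10 with GENCODE M21, per the text deposited with the tables. The aligner and the versions of both quantification tools were not given in the sources used here.

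TPM were used as deposited for levels. Neighbouring levels were called apart when 1 gene was higher in both libraries and the gap of the means exceeded the larger SD. Folds are ratios of expected counts scaled by TMM factors (edgeR 4.0.16, from genes averaging 10 counts or more) with exact conditional binomial 95% intervals. These cover counting error only and not the spread between animals, because each side is 1 animal. Reads lacking molecular identifiers cannot be taken as separate molecules, so the intervals may be too narrow even for counting error. Log2 ratios are of CPM + 1, which understates differences of low genes. The smallest p that an exact paired permutation test over 2 animals allows is 0.5, so none was computed. Alternatives used kallisto-format values, posterior means, DESeq2 1.42.0 size factors, library totals and ERCC totals, other thresholds, and 1 library at a time. The script was checked on simulated counts.

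The genes, marker lists and context lists were chosen with earlier results of these data known. Named genes are the members detected in both libraries, the highest member of each subfamily and members 2-fold apart, and in each context list the 2 highest genes and any 2-fold apart; others named were chosen after their values were seen. Entries named by a bare number, the spike-ins and a sequencing control took 0.243% and 0.238% of expected counts and were left out. Protein sequences were not used here. Some genes of these lists enter the counts and sums but are not reported here by name or drawn.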

Additional observations from a re-analysis of the deposited data

How the results depend on the processing

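The number of detected genes was 29, and it was 34 at 0.5 TPM, 22 at 2 TPM, 29 with kallisto-format TPM and 38 with TPM rescaled over nuclear protein-coding genes. Summed levels moved by more than the SD of the replicates with kallisto-format TPM for Cav2 pores (8.40 against 7.48 TPM), alpha2delta subunits (54.2 against 62.2 TPM) and HCN genes (5.57 against 6.73 TPM), and with posterior mean TPM for Cav2 pores (9.28 TPM) and sodium channel pores (15.1 against 12.98 TPM). The number of genes at least 2-fold higher in replicate 2 was 1, and it was 2 with a mean of at least 10 counts, 6 with no filter on counts and 3 at 1.5-fold. The number lower was 0, and it was 2, 2 and 1 under the same settings. Scn7a was called higher under each scaling and quantifier tried. The median log2 ratio ran from 0.03 to 0.09 over the alternatives. Library totals shifted the log2 scale by 0.05 and spike-in totals by 0.08, and for Cacnb3, Scn8a and Scn2a the interval then held equality, while those of Hcn2 and Trpv2 (both scalings) and Trpc1 (spike-in totals) came to lie above it. For Cacna1h the interval held equality with DESeq2 size factors. No paired analysis was possible because the labels give 1 group. The alignment of protein sequences named in the plan was not run.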
